A study of Rattus norvegicus with 10 samples.

Results

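The 10 genes described here are markers of endothelial cells, which line blood vessels, in the testis of adult rats exposed to a brominated flame retardant around birth. They are Pecam1, Cdh5, Esam and Emcn, of the cell surface and junctions, Kdr and Flt1, receptors of vascular endothelial growth factor, Tek and Tie1, receptors of the angiopoietin system, and the secreted proteins Vwf and Egfl7. They were taken as a fixed list of symbols, all 10 of which were found among 17274 gene symbols in the deposited table. For each symbol the locus with the highest mean of both groups was used. For Tek this was a merged locus that also names Eqtn, a gene of the sperm acrosome, so its value belongs to neither gene alone.

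BDE-47, a tetrabrominated diphenyl ether, was given in tocopherol-stripped corn oil to Wistar dams at a daily dose of 0.2 mg per kg body weight, beginning on pregnancy day 8 and ending on postpartum day 21. The vehicle group received that oil alone, and each group had 7 dams. Poly(A) RNA was sequenced from the testes of male offspring on postnatal day 120, with 5 BDE-47 libraries and 5 vehicle libraries. The deposited table gives 1 value per group and locus in FPKM, fragments scaled to transcript length and to the fragments of the library, so the spread between animals is unknown, nothing was tested, and every difference below is a difference of 2 group values. The depth of the libraries is unknown, and the labels do not say which animals were littermates. The direction of every difference rests on the column names BDE-47 and Control, since nothing in the table ties its columns to single libraries, and the titles of the libraries labelled BDE-47 carry a C code while those labelled vehicle carry an X code. The extraction text names liver. In the BDE-47 and the vehicle column, the liver gene Alb was at 0.633 and 0.92 FPKM and the sperm chromatin gene Prm1 at 16271 and 43238 FPKM. Of the other liver genes, Fgb was at 6.45 and 5.24 FPKM and Serpina1, a protease inhibitor gene, at 662 and 1479 FPKM.

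The endothelium forms the inner wall of blood vessels. Its cells are held together by VE-cadherin (Cdh5) and other junction proteins, and their growth and survival depend on vascular endothelial growth factor signalling through Kdr and on angiopoietin signalling through Tek. In the testis, blood vessels run through the interstitial tissue between the seminiferous tubules, beside Leydig cells and macrophages, and do not enter the tubules where germ cells develop. In a whole testis most of the RNA comes from germ cells, so endothelial genes are read at low levels, and a change in the share of endothelial cells cannot be told apart from a change in RNA per cell.

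Promoter sequence was at hand for 5 of the 10 members, Emcn, Egfl7, Tie1, Flt1 and Kdr, from RefSeq on build GRCr8, with 6 windows in all because Egfl7 has an entry for a second start. The 250 bases before the start are shown for 3 genes that were higher in the BDE-47 column and for Flt1, the member that was lower. Capitals mark matches on either strand to CCGGAA or CAGGAA, letters bound by ETS factors, a family that includes the endothelial regulators Erg and Fli1.
Emcn (chr2:228564289-228564538, plus strand): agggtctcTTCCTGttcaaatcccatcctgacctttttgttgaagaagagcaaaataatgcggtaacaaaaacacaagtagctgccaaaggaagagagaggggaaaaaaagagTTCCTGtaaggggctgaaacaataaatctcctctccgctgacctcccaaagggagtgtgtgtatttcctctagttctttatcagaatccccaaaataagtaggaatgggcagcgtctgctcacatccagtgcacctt
Egfl7 (chr3:29805381-29805630, plus strand): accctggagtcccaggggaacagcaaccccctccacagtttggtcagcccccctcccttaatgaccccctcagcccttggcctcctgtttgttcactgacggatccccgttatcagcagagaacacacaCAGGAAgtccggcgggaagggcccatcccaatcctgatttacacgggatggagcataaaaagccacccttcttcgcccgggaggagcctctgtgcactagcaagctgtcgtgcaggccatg
Kdr (chr14:32571813-32572062, plus strand): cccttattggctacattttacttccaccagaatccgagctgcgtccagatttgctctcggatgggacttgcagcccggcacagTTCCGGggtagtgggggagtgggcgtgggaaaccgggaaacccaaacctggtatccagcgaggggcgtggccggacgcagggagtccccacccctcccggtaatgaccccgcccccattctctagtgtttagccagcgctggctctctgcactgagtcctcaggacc
Flt1 (chr12:12333180-12333429, plus strand): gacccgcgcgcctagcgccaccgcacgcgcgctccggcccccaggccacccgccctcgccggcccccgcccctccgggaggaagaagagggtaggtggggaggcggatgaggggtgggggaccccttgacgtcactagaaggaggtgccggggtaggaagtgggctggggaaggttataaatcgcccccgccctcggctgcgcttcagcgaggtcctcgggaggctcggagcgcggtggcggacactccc
Emcn had matches to CAGGAA beginning 242 and 137 bases before the start, Egfl7 had 1 beginning 121 bases before it and Kdr had a CCGGAA match beginning 167 bases before it. Flt1 had no match. Tie1, also higher in the BDE-47 column, and the second Egfl7 start are not shown, and neither had a match. The genes shown therefore do not set higher members apart from the lower one. Either form was found in 3 of the 6 windows of 300 bases, which reach 50 bases past the start, and in 40.0% of 33469 promoter windows of the rat table, so the members' share was near that of all promoters. CCGGAA alone was found in 15.0% of all windows and CAGGAA alone in 29.1%. The GATA motif GATAAG and the SOX motif ACAATG, in 7.05% and 13.2% of all windows, were in none of the 6. The GC content of the windows was 72.7% for Flt1, 64.3% for Tie1, 61.0% for Kdr, 59.3% for the first Egfl7 start and 47.0% for Emcn, against a median of 51.7% over all windows.

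Of the 10 members, 9 had a higher FPKM in the BDE-47 column than in the vehicle column and 1, Flt1, had a lower one. At least 2-fold higher FPKM was seen for 8 members, all except Flt1 and the merged locus of Eqtn and Tek, and no member was 2-fold lower. Among the 14867 named genes above 0 in both columns, 37.6% were higher and 5.86% lower by that size. The median fold of the 10 members was 3.62, against 1.48 for those named genes. On the log2(FPKM + 1) scale, which understates the difference of genes near or under 1 FPKM, only Pecam1 and Egfl7 of the 10 members differed by 2-fold or more, both higher in the BDE-47 column. The background on that scale was 21.3% higher and 2.46% lower over all 16915 named genes, so the count of 2 lay near the background while the count of 8 lay above it. No test stands behind either comparison.

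**Figure D1:**
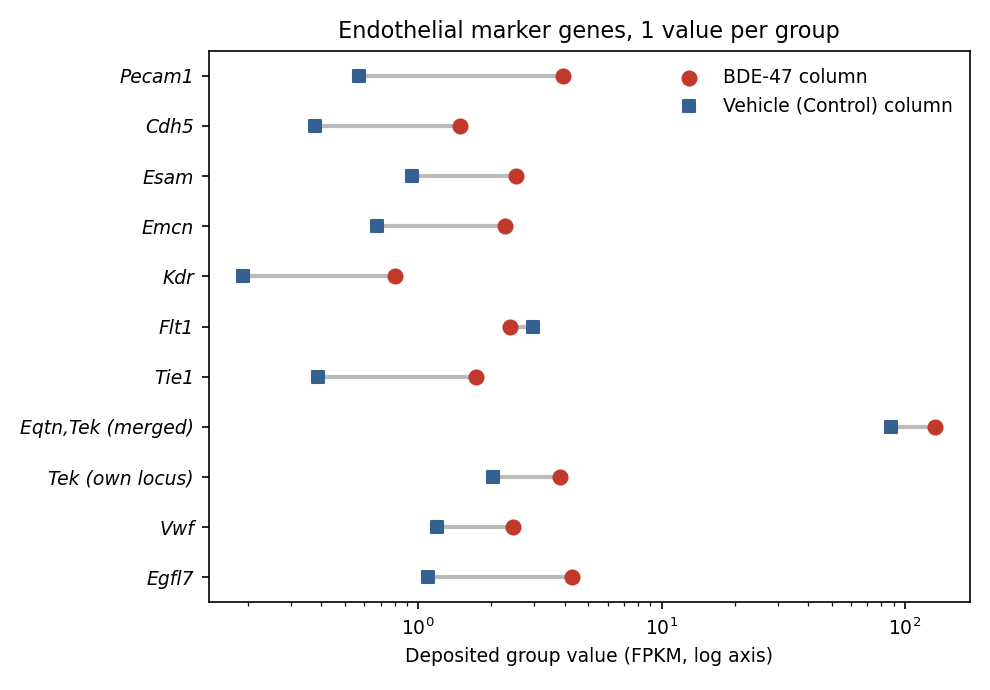
Deposited FPKM of the endothelial markers on a log axis, with the BDE-47 column as circles and the vehicle column as squares, 1 value per group and no error available. The circle lies right of the square in every row except that of Flt1, and the merged locus of Eqtn and Tek lies far to the right of all other loci.

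Pecam1, the adhesion molecule CD31 at endothelial junctions, was at 3.94 FPKM in the BDE-47 column and 0.570 FPKM in the vehicle column. This 6.92-fold ratio was the highest of the 10 members, and the difference on the log2(FPKM + 1) scale was 1.65. In the BDE-47 column 56.4% of named genes had a higher FPKM than Pecam1, and in the vehicle column 67.0% did. Its locus spans chromosome 10:94598950-94660516 of build rn5. Pecam1 is also carried by leukocytes and platelets, whose genes are described further on.

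Cdh5, the cadherin of endothelial adherens junctions, was at 1.49 FPKM in the BDE-47 column and 0.376 FPKM in the vehicle column, a 3.97-fold ratio and a difference of 0.86. Its mean of 0.936 FPKM put it under the minimum mean of 1 FPKM used for comparing genes. Esam, an adhesion molecule of endothelial tight junctions that platelets also carry, was at 2.53 FPKM in the BDE-47 column and 0.940 FPKM in the vehicle column, a 2.69-fold ratio. Its difference on the log2(FPKM + 1) scale, 0.86, equalled that of Cdh5, since the added 1 weighs more on the lower gene. Emcn, the sialomucin of capillary and venous endothelium, was at 2.28 FPKM in the BDE-47 column and 0.678 FPKM in the vehicle column, a 3.36-fold ratio and a difference of 0.97. All 4 surface and junction genes were thus higher in the BDE-47 column, with Pecam1 furthest apart. The ratio of Pecam1 to Cdh5 was 2.64 in the BDE-47 column and 1.52 in the vehicle column. Cdh5 spans chromosome 19:1022597-1072784, Esam chromosome 8:39998688-40009626 and Emcn chromosome 2:261184359-261264295 of build rn5.

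The 2 growth factor receptors went in opposite directions. Kdr, the main signalling receptor of vascular endothelial growth factor, was the lowest member in both columns, at 0.801 FPKM in the BDE-47 column and 0.191 FPKM in the vehicle column, a 4.20-fold ratio. Because both values lie under 1 FPKM, its difference on the log2(FPKM + 1) scale was 0.60. Flt1, which binds the same growth factor and also occurs as a soluble form that holds it back, was at 2.39 FPKM in the BDE-47 column and 2.97 FPKM in the vehicle column, a ratio of 0.807 and a difference of -0.23. The ratio of Flt1 to Kdr was therefore 2.99 in the BDE-47 column and 15.6 in the vehicle column. Flt1 was the highest member with a locus of its own in the vehicle column and stood behind Egfl7, Pecam1, Esam, Vwf and Tek's own locus in the BDE-47 column. Kdr spans chromosome 14:34557360-34618111 and Flt1 chromosome 12:11155071-11325040 of build rn5.

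Flt1 is named at 3 loci with the same bounds, and all 3 were lower in the BDE-47 column. Beside the locus given above, another was at 1.31 FPKM in the BDE-47 column and 2.28 FPKM in the vehicle column, and the lowest at 0.722 and 1.49 FPKM, with ratios of 0.574 and 0.483. Locus numbers in the table run along each chromosome in a first and a second series. On chromosome 12, 96.1% of 154 genes with 1 locus in the first series lie on the plus strand in RefSeq GRCr8, and 96.2% of 159 such genes in the second lie on the minus strand. The Flt1 promoter lies on the plus strand. The highest Flt1 locus stands in the first series and the other 2, which were further apart between the columns, stand in the second, the series of the opposite strand. What these opposite-strand loci are is not annotated in the table, and without the strand setting of the counting the reads of the 3 loci cannot be fully told apart.

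Tie1, the partner receptor of Tek with no ligand of its own in classical models, was at 1.72 FPKM in the BDE-47 column and 0.387 FPKM in the vehicle column, a 4.44-fold ratio and a difference of 0.97. The merged locus of Eqtn and Tek was at 133 FPKM in the BDE-47 column and 88.0 FPKM in the vehicle column, a 1.52-fold ratio and a difference of 0.59. This level was far above that of every other member, whose highest values were 4.29 FPKM in the BDE-47 column and 2.97 FPKM in the vehicle column. A separate locus with the same bounds that names Tek alone was at 3.81 FPKM in the BDE-47 column and 2.03 FPKM in the vehicle column, a 1.88-fold ratio and a difference of 0.67. On chromosome 5, 99.2% of 246 single-locus genes in the first series of numbers lie on the plus strand and 98.8% of 257 in the second on the minus strand. The merged locus stands in the second series, as does Tie1, and Eqtn lies on the minus strand in RefSeq, whereas the locus of Tek alone stands in the first. The ratio of Tek's own locus to Tie1 was 2.22 in the BDE-47 column and 5.24 in the vehicle column, so the pair differed unequally between the columns. An unnamed locus in the same bounds was at 3.05 FPKM in the BDE-47 column and 2.06 FPKM in the vehicle column, and another at 0.712 and 0.717 FPKM. Tek spans chromosome 5:117672483-117828876 and Tie1 chromosome 5:141084009-141111588 of build rn5.

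Vwf, which encodes the large glycoprotein that binds platelets to damaged vessel walls and is made in endothelium and megakaryocytes, was at 2.46 FPKM in the BDE-47 column and 1.19 FPKM in the vehicle column. Its 2.07-fold ratio was the smallest among the 8 members with a locus of their own other than Flt1 and Tek, and its difference was 0.66. Egfl7, a secreted protein that guides vessel formation, was at 4.29 FPKM in the BDE-47 column and 1.10 FPKM in the vehicle column, a 3.89-fold ratio and a difference of 1.33. The ratio of Egfl7 to Vwf was 1.74 in the BDE-47 column and 0.927 in the vehicle column, and that of Pecam1 to Vwf was 1.60 and 0.480, so the order of these genes turned between the columns. Vwf spans chromosome 4:225098520-225229257 and Egfl7 chromosome 3:9395192-9415695 of build rn5.

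The bounds of Egfl7 hold 3 further named loci. Mir126, the microRNA gene within an intron of Egfl7 that is known for its role in endothelium, was listed at 0 in both columns. Such a 0 may only mean that the estimate failed, and poly(A) libraries do not capture mature microRNAs. Agpat2, an enzyme of lipid synthesis that lies next to Egfl7, was at 121 FPKM in the BDE-47 column and 145 FPKM in the vehicle column and thus did not share the difference of Egfl7. Its locus stands in the second series of numbers and that of Egfl7 in the first.

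**Figure D2:**
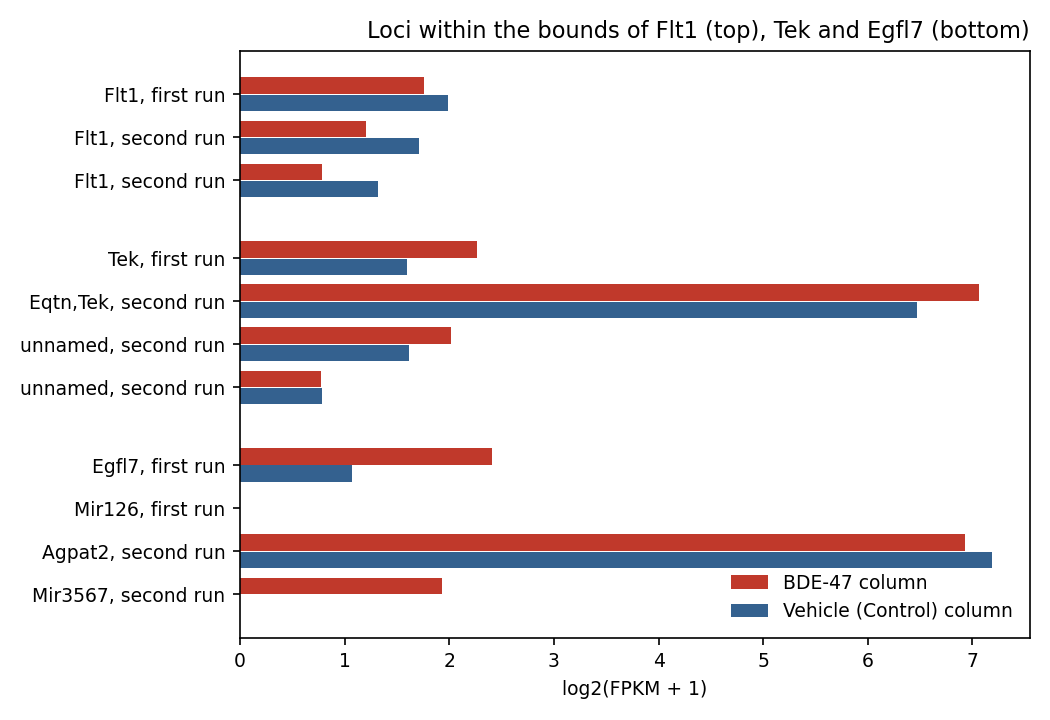
Every locus that shares the bounds of Flt1, Tek or Egfl7, on the log2(FPKM + 1) scale, with the BDE-47 bar above the vehicle bar and the series of locus numbers (run) beside the name. All 3 Flt1 loci have the shorter bar for BDE-47, the merged locus of Eqtn and Tek stands far above Tek alone, and Mir126 has no bar in either column.

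Within the BDE-47 column the loci with Tek taken from its own locus ranked Egfl7, Pecam1, Tek, Esam, Vwf, Flt1, Emcn, Tie1, Cdh5 and Kdr from high to low FPKM. Within the vehicle column the order was Flt1, Tek, Vwf, Egfl7, Esam, Emcn, Pecam1, Tie1, Cdh5 and Kdr. The lower end, Tie1 above Cdh5 above Kdr, was the same in both columns, whereas Flt1 stood sixth in the BDE-47 column and led the vehicle column, and Pecam1 stood second in the BDE-47 column and seventh in the vehicle column. No spread is known, so it cannot be said which neighbours in these orders differ. Leaving aside Flt1 and Tek, a choice made after their values were seen, the other 8 members ranged over 0.801 to 4.29 FPKM in the BDE-47 column and 0.191 to 1.19 FPKM in the vehicle column. Their summed FPKM was 19.5 in the BDE-47 column and 5.43 in the vehicle column, a 3.59-fold ratio.

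All genes together were shifted toward the BDE-47 column. Over the 11567 genes that averaged 1 FPKM or more the median difference was 0.45 on the log2(FPKM + 1) scale, with 30.1% called 2-fold higher and 3.60% called 2-fold lower. Over all 10 members the median was 0.86, against 0.15 over all 16915 named genes. Cdh5 and Kdr averaged under 1 FPKM and so lie outside the 11567 genes. With them included, 9 members lay above the shift of 0.45. Relative to that shift Pecam1 was higher by 1.20, Egfl7 by 0.88, Tie1 by 0.52, Emcn by 0.51, Cdh5 and Esam by 0.41, Vwf by 0.21 and Kdr and the merged Tek locus by 0.14, and Flt1 stood at -0.68.

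The size of these differences depended on how the columns were scaled. Median-of-ratios scaling removed a shift of 0.52 log2 units, after which Pecam1 was at 1.26, Egfl7 at 0.92, Tie1 at 0.66, Emcn at 0.63, Cdh5 at 0.57, Esam at 0.51, Kdr at 0.39, Vwf at 0.31, the merged Tek locus at 0.08 and Flt1 at -0.57. The direction of all 10 was kept. Quantile normalization, which gives the 2 columns the same distribution and covers only the compared genes, left Pecam1 at 0.79 and Egfl7 at 0.49, placed Tie1, Emcn and Esam at 0.10, 0.11 and 0.04, left the merged Tek locus at 0.59, turned Vwf to -0.18 and put Flt1 at -1.07. The share of higher genes among all genes past 2-fold was 89.3% as deposited, 78.1% after rescaling without the most abundant loci, 56.6% when scaled by the median of ratios and 48.1% with quantile normalization. Both of the last centre the columns by construction.

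**Figure D3:**
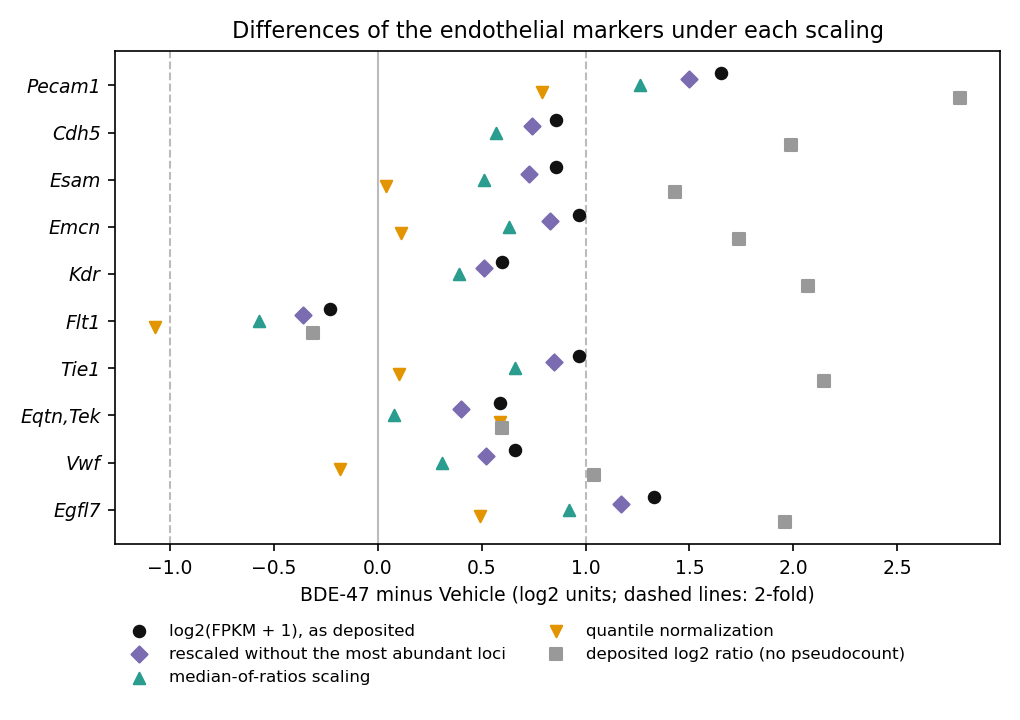
Difference of each endothelial marker, BDE-47 minus vehicle in log2 units, as deposited with 1 added to each FPKM, under 3 scalings, and as the authors' deposited log2 ratio, with dashed lines at 2-fold. Pecam1 lies furthest right and Flt1 furthest left under every scaling on the log2(FPKM + 1) scale, and quantile normalization places Tie1, Emcn and Esam close to 0 and Vwf below it.

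Other genes of endothelial cells were also mostly higher in the BDE-47 column. The lists that follow count genes that averaged 1 FPKM or more, to be read against 30.1% higher and 3.60% lower among all such genes and their median of 0.45. Of 14 further surface and signalling genes, 7 were called higher and none lower, and the list median was 1.11. Thbd, the thrombin receptor thrombomodulin, was at 11.7 FPKM in the BDE-47 column and 0.642 FPKM in the vehicle column, Tspan7, a tetraspanin, at 15.6 and 1.21 FPKM, and Cav1, the coat protein of caveolae, at 16.3 and 3.03 FPKM. Sertoli, Leydig and muscle cells can also express genes of these lists, and how much of a value came from endothelium was not tested.

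The ligands of the receptors did not share a direction. Of 7 ligand and co-receptor genes, 3 were called higher and 1 lower, and the median was 0.44. With merged loci left out it was 0.97, against 0.47 for all compared genes. Vegfa, the ligand of Kdr and Flt1, was at 9.32 FPKM in the BDE-47 column and 1.52 FPKM in the vehicle column. Figf, which encodes the growth factor VEGF-D, was at 3.41 and 0.112 FPKM, and the peptide hormone gene Apln at 7.06 and 1.87 FPKM. The lower member was the merged locus of Dnajc4 and Vegfb, at 35.5 FPKM in the BDE-47 column and 73.5 FPKM in the vehicle column. The Tek ligands Angpt1 (7.36 and 5.17 FPKM) and Angpt2 (3.36 and 3.41 FPKM) and the co-receptor gene Nrp1 (8.17 and 12.0 FPKM) lay within 2-fold. These 4 loci were named after their values were seen.

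Of 9 junction genes 5 were called higher and none lower, and the list median was 1.13. F11r, which encodes the junctional adhesion molecule JAM-A of many epithelia and of endothelium, was at 84.4 FPKM in the BDE-47 column and 8.88 FPKM in the vehicle column, Jam2 at 20.7 and 5.31 FPKM, and Ocln, which encodes occludin, at 5.21 and 1.21 FPKM. Transcription factors of endothelium had a median of 0.99, with 5 of 11 called higher and none lower. Sox17, of arterial endothelium, was at 3.89 FPKM in the BDE-47 column and 0.607 FPKM in the vehicle column, and the ETS factors Fli1 and Elk3 were at 2.83 and 0.379 FPKM and at 2.22 and 0.295 FPKM. Notch pathway genes had a median of 0.90, with 2 of 5 called higher. These were the merged locus of Gpsm3 and Notch4, at 5.46 FPKM in the BDE-47 column and 1.42 FPKM in the vehicle column, and Rbpj, the DNA-binding partner of Notch, at 10.6 and 3.43 FPKM.

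Genes of activated endothelium had a median of 2.02, and 3 of 4 were called higher. Without the minimum mean the median was 1.25, and after quantile normalization it was 1.16. The adhesion genes Vcam1 and Icam1 were at 27.9 and 4.56 FPKM in the BDE-47 column, against 3.58 and 0.503 FPKM in the vehicle column. Edn1, which encodes the vessel-constricting peptide endothelin, was at 4.41 and 0.219 FPKM. The other compared gene, Selp, had a difference of 0.62, at 2.28 FPKM in the BDE-47 column and 1.14 FPKM in the vehicle column. Selp was named after its values were seen. Sele, the selectin found on activated endothelium, was at 0.0448 FPKM in the BDE-47 column and 0.0229 FPKM in the vehicle column and was not compared. Of 4 compared genes of lymphatic endothelium, 2 were called higher, and the list median was 0.67. The chemokine gene Ccl21 was at 12.9 FPKM in the BDE-47 column and 0.283 FPKM in the vehicle column. Flt4, the receptor of VEGF-C and VEGF-D, was at 2.50 and 0.0398 FPKM. The other 2, Prox1 and Pdpn, were lower in the BDE-47 column but within 2-fold. Prox1 was at 1.77 FPKM in the BDE-47 column and 3.46 FPKM in the vehicle column, and Pdpn at 1.06 and 1.73 FPKM. Prox1 and Pdpn were named after their values were seen. Pericytes, the contractile cells that wrap capillaries, had a list median of 1.13 with 5 of 9 genes higher, among them Des, a filament gene of muscle with a difference of 2.07, Rgs5 (5.54 and 1.58 FPKM) and Anpep (1.88 and 0.146 FPKM).

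Most compared genes of the macrophage and blood lists were higher in the BDE-47 column, whereas most of the platelet list were not. The macrophage list had 9 of 11 genes called higher, a median of 3.07 and a summed FPKM of 852 in the BDE-47 column and 539 in the vehicle column. Aif1 alone was at 413 FPKM in the BDE-47 column and 505 FPKM in the vehicle column, and without it, a choice made after the values were seen, the sums were 439 and 34.3 FPKM. The lysozyme gene Lyz2 led in difference with 4.47. The markers Cd68 and Csf1r were at 17.4 and 18.5 FPKM in the BDE-47 column, against 0.796 and 1.33 FPKM in the vehicle column. Adgre1, a further marker of the list, lay within 2-fold, at 9.0 FPKM in the BDE-47 column and 4.89 FPKM in the vehicle column. Cd68, Csf1r and Adgre1 are named outside the rule for naming genes given below. Of 5 compared platelet genes, 1 was higher and the median was -0.25. The higher one was Pf4, a chemokine gene of platelets, at 63.1 FPKM in the BDE-47 column and 6.45 FPKM in the vehicle column. Of the other platelet genes, Gp9 was at 0.173 and 0.0218 FPKM, and Ppbp was listed at 0 in the BDE-47 column and at 0.0319 FPKM in the vehicle column. Gp1ba was at 0.908 and 1.27 FPKM, Gp5 at 1.19 in both, Itgb3 at 3.34 and 4.53 FPKM and the merged locus of Gp1bb and Sept5 at 7.89 and 14.9 FPKM. The summed FPKM of the platelet list was 76.8 in the BDE-47 column and 28.7 in the vehicle column, and without Pf4 it was 13.7 and 22.3, the opposite direction. The blood list had all 3 of its compared loci higher, with a median of 1.51 and sums of 132 FPKM in the BDE-47 column and 41.6 FPKM in the vehicle column, the merged Hbb locus leading with a difference of 1.95. The part of leukocytes, platelets and blood in the values of Pecam1, Esam and Vwf was not tested.

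Lists of the other main cells of the testis gave the following values. In the Leydig cell list all 8 genes were called higher, with a median of 2.66 and Cyp17a1, of androgen synthesis, leading with 4.11. In the Sertoli cell list 8 of 9 were called higher, with a median of 1.56 and the junction gene Cldn11 leading with 2.59. The peritubular smooth muscle list had 5 of 10 called higher and a median of 1.09, led by Des, which is also in the pericyte list. Among the 5 within 2-fold were Acta2, at 41.6 FPKM in the BDE-47 column and 25.1 FPKM in the vehicle column, and Myh11, at 14.3 and 13.7 FPKM. Acta2 and Myh11 were named after their values were seen. In the spermatid list none of 11 was called higher and 9 were called lower, with a median of -1.25 and the transition protein gene Tnp2 furthest apart at -1.43. Of 4 compared liver genes 1 was called higher and 1 lower, Cyp2e1 with 1.10 and Serpina1 with -1.16, and the median was 0.11. FPKM is a share of each column's reads, so the lower spermatid values and the higher values of other cells are not independent, and their part in the endothelial differences was not tested.

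**Figure D4:**
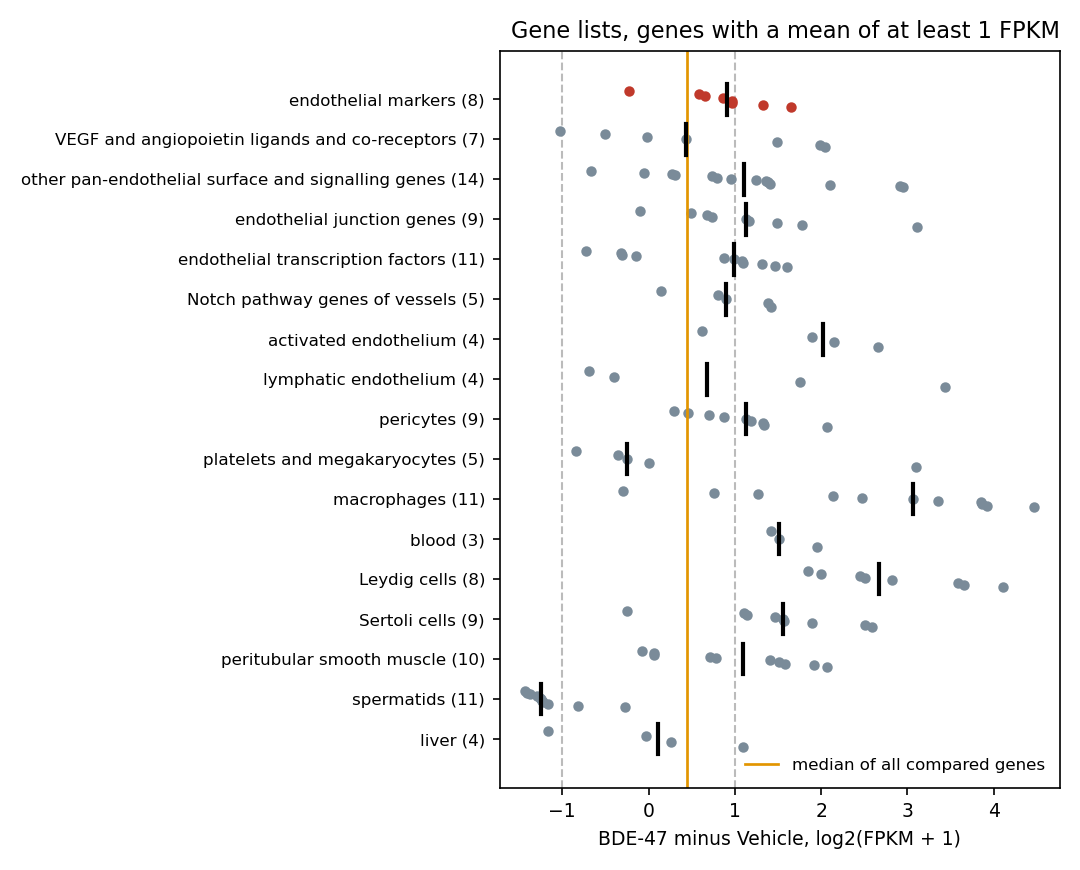
Difference of each compared gene, BDE-47 minus vehicle on the log2(FPKM + 1) scale, for the endothelial markers (top) and the other lists, with the number of genes in brackets, a black bar at each list's median and a line at the median of all compared genes. The endothelial markers spread over -0.23 to 1.65, left of the macrophage and Leydig cell medians of 3.07 and 2.66 and right of the spermatid median of -1.25.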

How the data were processed

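TopHat2, Cuffdiff 2.1.1 and rat genome build rn5 are named in the submitters' processing notes. For the gene annotation, the strand setting and the way 5 libraries became 1 value, the sources used here give nothing. The authors deposited 1 table of 94827 loci with the log2 of FPKM for each group and a log2 ratio, which equals the BDE-47 column minus the Control column within 0.01. A value of -10 is the floor and was read as listed at 0. The Control column was taken as the vehicle group.

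The log2 values were turned back into FPKM, and each name field was represented by its locus of highest mean. Differences are log2(FPKM + 1) of BDE-47 minus vehicle. Genes averaging 1 FPKM or more were compared, and a difference of at least 2-fold was called, a rule of size and not a test. Of the 10 members, 8 reached that mean. Merged loci count once in a list. Strands and promoter sequences come from RefSeq GRCr8. The analysis used Python 3.11.15, pandas 2.3.3 and numpy 2.4.6. A test per library was planned if the table held library values, which it does not.

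The members and lists were chosen with earlier results of these data known. The genes named are all members, loci with the same bounds as a member, and up to 3 genes of each list, those furthest past 2-fold or, failing that, its 2 most abundant. Exceptions are marked where they stand, apart from Fgb and the platelet genes Gp1ba, Gp5, Itgb3 and the merged locus of Gp1bb and Sept5. These were also named outside the rule. Of the list genes, those under the minimum mean are named only as markers near 0.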

Additional observations from a re-analysis of the deposited data

Results flagged for a closer look

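Mir3567, a microRNA gene whose locus shares the bounds of Egfl7, was at 2.81 FPKM in the BDE-47 column and listed at 0 in the vehicle column. It enters none of the comparisons above and was singled out because it held signal in 1 column only. A listed 0 can be a failed estimate, so no fold is given.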

How the results depend on the processing

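With 1 value per group no library could be left out, no error is known, and no list was resampled. No paired analysis was possible because the table holds 1 value per group. The values here cover genes averaging 1 FPKM or more, a level that 8 of the 10 members reached, with 2 of them at least 2-fold higher, none lower and a median of 0.92. Among all compared genes 30.1% were higher and 3.60% lower, and the median was 0.45. Cdh5 and Kdr have no value under quantile normalization, which was run on compared genes.

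With pseudocounts of 0.1 and 0.01, 5 and 6 members were at least 2-fold higher and their median was 1.48 and 1.58. Of all compared genes 35.0% and 35.4% were higher by that size, with medians of 0.51 and 0.52. The list medians were then 1.32 and 1.39 for transcription factors, 1.41 and 1.5 for Notch genes and 1.78 and 2.38 for lymphatic genes. With the log2 ratio of the authors' deposited table, 6 members were past 2-fold, with medians of 1.58 for the members, 1.39 for transcription factors, 1.51 for Notch genes and 2.40 for lymphatic genes. By that ratio 35.6% of all compared genes were 2-fold higher, and their median was 0.52. After median-of-ratios scaling 1 member was past 2-fold and the members' median was 0.57. Of all compared genes 18.3% were then higher and 14.0% lower, with a median of 0.0. The list medians were 0.52 for transcription factors, 0.55 for Notch genes, -0.01 for ligands, 0.77 for surface genes, 0.63 for junctions, 0.73 for pericytes, 0.66 for smooth muscle and -0.23 for liver.

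After quantile normalization 0 members were 2-fold higher and 1, Flt1, was lower, while Vwf turned to -0.18 and the members' median was 0.10. Of all compared genes 13.4% were then higher and 14.4% lower, with a median of -0.08. With 8 members, a count of 1 lies near these shares. The list medians were 0.22 for transcription factors, 0.06 for Notch genes, 1.16 for activated endothelium, -0.37 for ligands, 0.24 for surface genes, 0.36 for junctions, -0.12 for lymphatic genes, 0.28 for pericytes, -1.08 for platelets, 0.59 for smooth muscle and -0.71 for liver. Rescaling without mitochondrial loci and the 10 loci of highest level gave 0.97 for surface genes, 0.94 for junctions, 0.97 for pericytes, 0.93 for smooth muscle and -0.02 for liver. The median of all compared genes was then 0.28. Without a filter the medians were 0.96, 0.87, 1.25 and -0.01 for surface genes, pericytes, activated endothelium and liver, against 0.15 for all named genes. Leaving out merged loci put the ligands at 0.97, against 0.44 with them, and all compared genes at 0.47. At a minimum mean of 5 FPKM only the merged Tek locus remained of the members, so 0 were past 2-fold. Of the 8439 genes at that mean, 26.4% were 2-fold higher and 4.57% lower, with a median of 0.33. The list medians were -0.03 for ligands, 0.93 for junctions, -0.31 for transcription factors, 1.13 for platelets and -0.45 for liver, from fewer genes. Summing all loci of a symbol gave 1.06 for lymphatic genes. Scaling does not change the order of levels within a column by construction. The cause of the other shifts was not tested.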

Other observations

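Several genes of the endothelial lists were not higher in the BDE-47 column. They were chosen after their values were seen. The blood and vessel transcription factor gene Lyl1 was at 24.4 FPKM in the BDE-47 column and 40.8 FPKM in the vehicle column, and its relative Tal1 at 9.06 and 11.5 FPKM. Klf4 was at 29.4 and 37.0 FPKM and Gata2 at 3.32 and 3.76 FPKM. The merged locus of Rasip1, a regulator of vessel lumens, and Izumo1, the sperm protein that binds the egg, was at 49.9 FPKM in the BDE-47 column and 79.9 FPKM in the vehicle column. Nos3, the nitric oxide synthase of endothelium, was at 1.27 and 1.34 FPKM.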
